A study of Rattus norvegicus with 36 samples.

Results

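Rat lung slices kept in culture with TGFb and Sora were compared with untreated slices of the same labelled time, 72. Precision-cut lung slices are thin living sections of lung in which the resident cell types stay in their tissue setting. Sora is read here as sorafenib, from knowledge of the study. The comparison holds the 6 samples titled TGFb_72_Sora and the 6 titled None_72_None, 12 of the 36 in the series, and each count column was tied to its sample by the code in the description label. The treated group carries both agents and the untreated group neither, and both were cultured rat lung slices. Slices with TGFb alone (TGFb_72_None, 6 samples) served to separate what stayed changed under the drug from what was new. Slices with TGFb and Pirf or Nint at 72, and untreated slices at time 0, were used for reference, 6 samples each. The labels give no unit of time, no dose, no isoform of TGFb and no strain, age or sex of the rats, and do not say whether untreated slices received a solvent. No label ties a sample to an animal or a culture, and the 6 samples of a group may be technical repeats. The p-values here rest on the spread among samples within groups alone. None of the 36 samples is titled as having Sora without TGFb, so the difference from untreated slices is the net of both agents.

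TGFb is a secreted growth factor that signals through serine/threonine kinase receptors and SMAD proteins. In lung it drives fibroblasts towards contractile, matrix-producing cells, and for this reason it is used to set up fibrosis models. Sorafenib is an oral inhibitor of several kinases, among them RAF kinases and the receptors for VEGF and PDGF. Net change against untreated tissue asks a different question from the drug effect alone, since a gene can respond to the drug and still lie far from its untreated level. The tables used here give genes as Ensembl IDs without names, so genes are described by ID, and the lung identity of the samples could not be checked against marker genes. In whole slices, fewer cells of a type and less RNA per cell cannot be told apart.

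Total counts per library lay between 23660962 and 32933012 with Sora and between 18971560 and 26361547 in untreated slices. The mean depth was 27986100 with Sora and 22583600 without treatment (exact permutation p = 0.0238, adjusted p = 0.119 over 5 library measures). Genes outside the authors' table of expressed coding genes took 11.8% ± 1.26 of counts (SD, n = 6) with Sora and 11.2% ± 1.12 in untreated slices (exact permutation p = 0.342). Sora libraries lay in wells numbered 1 to 3 and untreated libraries in wells numbered 3 to 5, so well position and treatment overlapped in well number 3 only, and a fit with the well number as a term was run beside the main one.

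Against untreated slices, 3913 of 15644 genes tested (25%) were called with Sora and TGFb, at an adjusted p under 0.05 in edgeR's quasi-likelihood test. Of these, 2056 were higher (13.1%) and 1857 lower (11.9%). Changes of at least 2-fold numbered 349 upward and 342 downward (4.42% together). TGFb alone, set against the same untreated libraries, gave 4130 calls (26.4%), 2187 higher (14%) and 1943 lower (12.4%), with 475 and 566 at least 2-fold (6.65% together). The comparisons share the untreated libraries, and the difference between their counts was not tested. Among called genes the median absolute log2 fold change was 0.45 with Sora and 0.52 with TGFb alone. Groups of 6 did not overlap for 1429 genes (9.13%) with Sora and for 2128 (13.6%) with TGFb alone. A test against a fold of 1.2 in place of no change called 1143 genes, 588 higher and 555 lower.

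**Figure D1:**
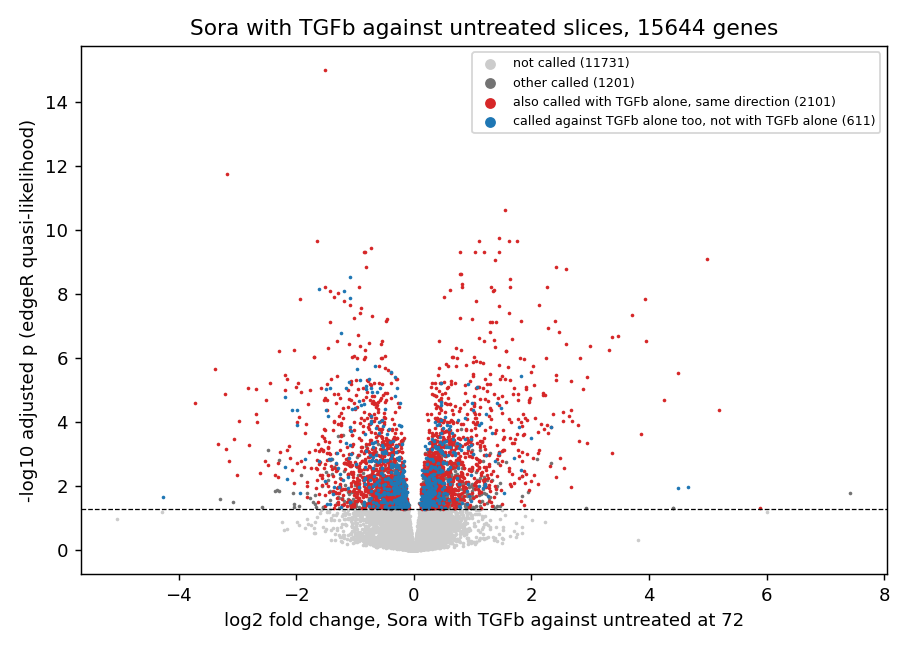
Each point is 1 of 15644 genes, with the log2 fold change of Sora with TGFb against untreated slices at 72 on the x axis and the -log10 adjusted p on the y axis, and the dashed line marks 0.05. Red genes (2101) were also called with TGFb alone in the same direction, blue genes (611) were called against TGFb alone but not with TGFb alone, and dark grey genes (1201) are the other calls.

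By mean level, 18% of the 3911 genes with the lowest counts were called, 393 higher and 312 lower, with a median absolute log2 fold change of 1.04. Of the 3911 genes with the highest counts 30.5% were called, 456 higher and 735 lower, with a median of 0.32. Among the 1164 tested genes that the coding table does not hold, 10.8% were called, 66 higher and 60 lower, beside 26.2% of those within it. No gene went from 0 counts in all 6 untreated libraries to 5 or more in each Sora library, and none did the reverse.

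Among called genes whose groups did not overlap, with a mean of at least 50 normalized counts in the higher group, the largest rise was that of ENSRNOG00000050024. It had 0 to 10.3 normalized counts in untreated slices (median 2.23) and 88.5 to 189.7 with Sora (median 153.2), where a normalized count is a count scaled to a common library size. All 6 Sora libraries stood above all 6 untreated ones, with a log2 difference of 5.19 (SE 0.86, adjusted p = 4.1e-05). TGFb alone gave 0 to 79 (median 20.4, log2 fold change 3.04 against untreated slices, adjusted p = 0.00834), a range that reached into the untreated one. Sora exceeded TGFb alone by 2.15 on the log2 scale (SE 0.68, adjusted p = 0.0293). This difference missed the threshold when the fit held only those 12 libraries (0.0838), with DESeq2 (0.0818) and against a fold of 1.2 (0.0954). It also missed it when Sora replicates 1, 3 and 4 and TGFb-alone replicates 2, 4 and 6 were each left out (0.0505 to 0.0705). Pirf slices lay above untreated ones as well (log2 fold change 4.38, adjusted p = 6.88e-05), and the difference between Sora and Pirf was 0.80 (SE 0.64, adjusted p = 0.323). Sora exceeded Nint by 2.33 (SE 0.68, adjusted p = 0.027).

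ENSRNOG00000013535 stayed high. Untreated libraries held 0 to 4.59 normalized counts of it (median 1.6), those with TGFb alone 29.2 to 46.2 (median 35.3) and those with Sora 46.5 to 70.8 (median 56.2). No library of 1 group overlapped with another of the 3. The log2 fold change against untreated slices was 4.98 with Sora (SE 0.44, adjusted p = 8.18e-10) and 4.31 with TGFb alone (SE 0.45, adjusted p = 7.52e-09). Sora against TGFb alone gave 0.67 (SE 0.32, adjusted p = 0.152), which was called by DESeq2 (0.00446) and when the fit held only those 12 libraries (0.0179). Its difference from untreated slices was 5.60 without untreated replicate 4, the highest untreated library. With Pirf the level was 11 ± 1.66, below that with Sora (log2 fold change of Sora over Pirf 2.40, SE 0.35, adjusted p = 1.47e-06). Nint, at 43.8 ± 10.1, was not separated from Sora (0.41, SE 0.31, adjusted p = 0.407).

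ENSRNOG00000011824 also stayed high, at a reduced level. It ranged from 19.8 to 63 normalized counts in untreated slices (median 37.1), from 774.6 to 2679.5 with TGFb alone (median 978.5) and from 301.1 to 585.3 with Sora (median 448.5). The 3 groups were fully apart. Sora libraries exceeded untreated ones by 3.37 on the log2 scale (SE 0.40, adjusted p = 2.19e-07) and lay below TGFb alone by -1.46 (SE 0.34, adjusted p = 0.004). Without TGFb-alone replicate 3, the highest library, that second difference was -1.06 and remained called (adjusted p = 0.0183). Untreated slices at time 0 ranged from 86.2 to 479.8 (median 102.8), and the highest of them overlapped with the Sora range. Sora lay above Pirf by 1.14 (SE 0.35, adjusted p = 0.00851) and below Nint by -1.31 (SE 0.34, adjusted p = 0.0129).

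Both IDs with the largest falls by the same criteria stayed low. ENSRNOG00000013605 had 43.4 to 120.3 normalized counts in untreated slices (median 84.5), 0.778 to 7.58 with TGFb alone (median 2.92) and 2.74 to 16.1 with Sora (median 4.72). Its log2 fold change against untreated slices was -3.73 with Sora (SE 0.60, adjusted p = 2.53e-05) and -4.60 with TGFb alone (SE 0.66, adjusted p = 2.14e-06). Every Sora library lay under every untreated one, and Sora and TGFb-alone libraries overlapped (log2 fold change 0.88, SE 0.73, adjusted p = 0.442).

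ENSRNOG00000023870 had 54.7 to 142.4 normalized counts in untreated slices (median 121.9), 0.983 to 7.58 with TGFb alone (median 3.89) and 5.53 to 21.3 with Sora (median 9.19). The fall from untreated slices was -3.38 with Sora on the log2 scale (SE 0.46, adjusted p = 2.17e-06). Sora exceeded TGFb alone by 1.40 (SE 0.55), which missed the threshold at an adjusted p of 0.0787. Sora and Pirf were not separated by the test for either ID (log2 differences -0.47, SE 0.64, and -0.58, SE 0.46, adjusted p = 0.583 and 0.328). Nor were Sora and Nint (-0.21, SE 0.65, and 1.34, SE 0.54, adjusted p = 0.866 and 0.0983).

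**Figure D2:**
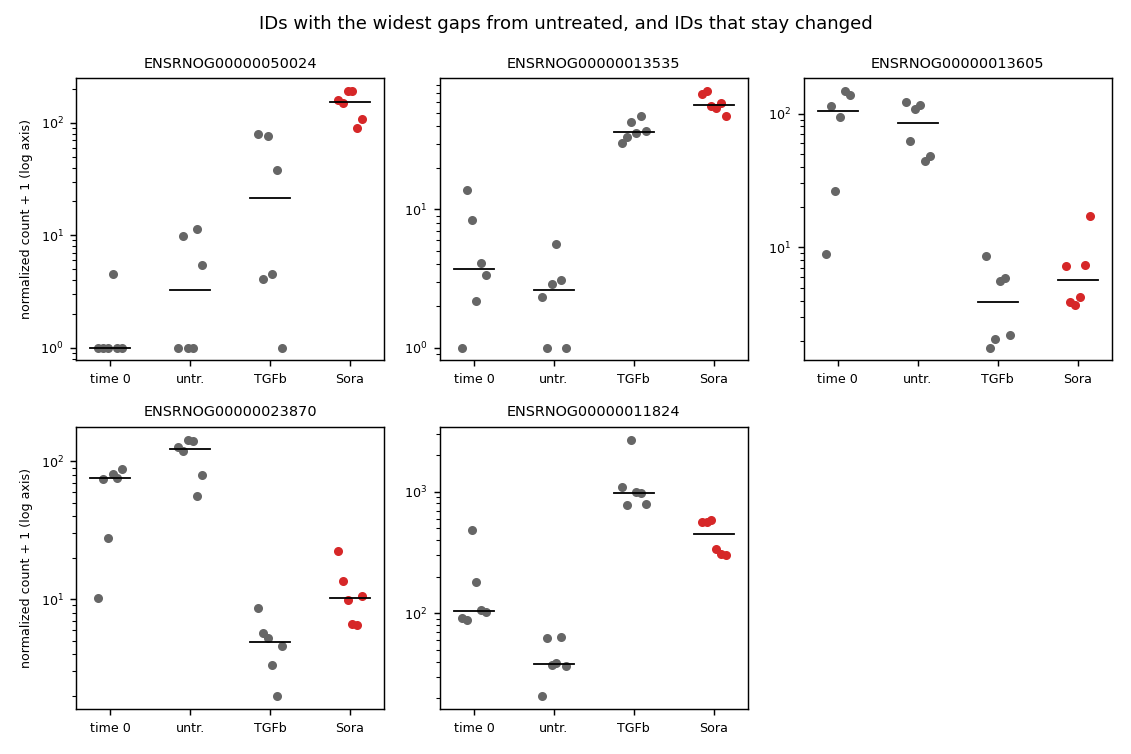
Normalized counts plus 1, on a log axis, in each of 6 libraries per group (points) with the group median (line), for the IDs with the largest rises and falls from untreated slices and those that stay changed. In every panel the 6 Sora libraries (red) lie apart from the 6 untreated libraries, and for ENSRNOG00000011824 they also lie below all 6 with TGFb alone.

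Of the 4130 genes called with TGFb alone, 2101 (50.9%) were called in the same direction with Sora and TGFb against untreated slices, which is the set that stays changed. It held 1110 higher and 991 lower genes, and 53.7% of the 3913 net calls. Both calls use the same untreated libraries, so this overlap is a description. For 1760 of the 2101 (83.8%), Sora and TGFb alone were not separated by the test. A reduced change, called against TGFb alone in the opposite direction, was seen in 278 genes (13.2%), of which 156 were higher and 122 lower than untreated. In 63 genes, 30 higher and 33 lower, Sora moved the level further in the TGFb direction. The test against TGFb alone called 2406 of all genes (15.4%), 1096 higher (7.01%) and 1310 lower (8.37%). A further 19 TGFb genes were called in the opposite direction, and 0 of them reached 2-fold.

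In the 1110 higher genes the median log2 fold change against untreated slices was 0.50 with Sora and 0.55 with TGFb alone, and 278 of them were at least 2-fold with Sora. In the 991 lower genes it was -0.62 and -0.75, and 233 were at least 2-fold. Over all genes tested the medians were 0.01 and 0.02. Within the 156 genes that stayed higher at a reduced level, the median went from 1.43 with TGFb alone to 0.70 with Sora. In the 122 that stayed lower at a reduced level it went from -1.32 to -0.61. All these medians are for genes chosen by the same contrasts and are given as a description. Against a fold of 1.2, 692 genes stayed changed.

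No longer called against untreated slices were 2010 TGFb genes (48.7%). In 816 of them (19.8% of the TGFb genes), 426 raised and 390 lowered by TGFb, the difference from TGFb alone was itself called in the opposite direction. Their medians against untreated slices were 0.43 with TGFb alone and 0.05 with Sora for the raised genes, and -0.66 and -0.05 for the lowered ones. The lack of a call with Sora is part of how these 816 were chosen, so their medians are a description. In the other 1194 neither test made a call, and their medians with Sora were 0.14 for the 643 raised and -0.22 for the 551 lowered. In neither set does a missed threshold by itself show a return to the untreated level. With each test made against a fold of 1.2, 197 genes met the rule of the first kind, and not all of them need lie among the 816.

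Examples of such genes were chosen after their values were seen, as those with the largest smaller change of the TGFb and drug contrasts and a mean of at least 50 normalized counts. ENSRNOG00000025184 had 3.34 to 10 normalized counts in untreated slices (median 7.64), 81.3 to 160.3 with TGFb alone (median 105.8) and 2.74 to 13.4 with Sora (median 8.37). The Sora range covered the untreated range, with a log2 difference of 0.11 (SE 0.40, adjusted p = 0.873). Pirf slices exceeded untreated ones by 1.63 on the log2 scale (adjusted p = 0.000439), and Nint slices by 2.37 (adjusted p = 8.02e-06). Sora lay below Pirf by -1.52 (adjusted p = 0.000955) and below Nint by -2.26 (adjusted p = 0.00015).

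ENSRNOG00000060374, outside the coding table, was called higher with TGFb alone, and few of those libraries were high. TGFb-alone replicates 1 and 2 held 678.6 and 742.7 normalized counts, and the other 4 lay between 23 and 49.8. Untreated libraries ranged from 15.6 to 33 and Sora libraries from 10.5 to 40.4, so that these groups overlapped with each other and with those 4. The TGFb difference of 3.41 (SE 0.87, adjusted p = 0.00311) was 2.73 without TGFb-alone replicate 2, and remained called. Nint was called too (2.42, adjusted p = 0.0334), with Nint replicate 6 at 664.1 and the other 5 at 43.9 or below.

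Of the lowered genes, ENSRNOG00000053272 had 3475 to 6152 normalized counts in untreated slices (median 4430.4), 699 to 1817 with TGFb alone (median 1696) and 2249.9 to 5190 with Sora (median 3878). All 6 Sora libraries exceeded all 6 with TGFb alone (log2 fold change 1.45, SE 0.21, adjusted p = 2.09e-05), and they overlapped with untreated libraries (-0.25, SE 0.21, adjusted p = 0.408). Untreated slices at 72 exceeded those at time 0, at 1293 ± 240.6, by 1.85 on the log2 scale (adjusted p = 2.7e-09). Sora exceeded Pirf by 0.57 (adjusted p = 0.0279) and Nint by 1.08 (adjusted p = 0.0014).

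ENSRNOG00000012278 had 347 to 694 normalized counts in untreated slices (median 489.7), 75.8 to 154.1 with TGFb alone (median 100.8) and 208.6 to 372 with Sora (median 327.5). Sora libraries lay above all 6 with TGFb alone (log2 fold change 1.51, SE 0.32, adjusted p = 0.00172) and overlapped with untreated ones at their upper end. Its log2 difference from untreated slices with Sora was -0.76 (SE 0.30, adjusted p = 0.0624). DESeq2 called that difference (0.0459), as did the fit that held only those 12 libraries (0.0105), and the ID then counts as still changed. With Pirf the level was 92.2 ± 9.92, lower than with Sora (log2 fold change of Sora over Pirf 1.72, SE 0.32, adjusted p = 6.78e-05). Nint stood at 152.4 ± 38.1, also below Sora (adjusted p = 0.0361).

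New under the drug were 611 genes, 15.6% of the net calls, with 277 higher and 334 lower. These were called against untreated slices and, in the same direction, against TGFb alone, and were not called with TGFb alone. Both calls use the same 6 Sora libraries, so the count is a description. Of these, 24 of the higher and 46 of the lower genes reached 2-fold. The median log2 fold change against untreated slices was 0.35 for the higher genes and -0.40 for the lower, beside 0.00 for both with TGFb alone. The lack of a call with TGFb alone is part of how the set was chosen, so these medians are a description. The median level in untreated slices was 1416 normalized counts for the lower genes, 374 for the higher genes and 433 over all genes tested. The 6 Sora libraries lay outside the range of both other groups in 33 of the higher and 52 of the lower genes. Over all 15644 genes, 207 had Sora libraries that overlapped neither with untreated slices nor with TGFb alone. Sora and TGFb-alone libraries by themselves did not overlap for 4.65% of all genes. The number of new genes depended on single libraries, with 368, 363 and 315 without Sora replicate 1, 2 or 3 and 1177 without Sora replicate 5. It was 268 in fits of the 12 libraries of each comparison and 62 against a fold of 1.2. Another 1182 net calls were separated neither with TGFb alone from untreated slices nor with Sora from TGFb alone, and so are neither carried over nor new by these tests.

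Of the IDs with the largest new changes, ENSRNOG00000029810 had 0 to 59.7 normalized counts in untreated slices (median 7.8), 0 to 50.6 with TGFb alone (median 16.7) and 0 to 1492 with Sora (median 73.5). Its high values were Sora replicates 2 and 5, at 904.8 and 1492, and the other 4 lay at 98.5 or below, within or near the ranges of both other groups. The log2 fold change against untreated slices was 4.66 (SE 1.34, adjusted p = 0.0104), 3.67 without Sora replicate 5 and 5.85 without untreated replicate 4. All 6 libraries at time 0 held 1315 to 1828. Nint was called against untreated slices as well (3.83, SE 1.33, adjusted p = 0.0304), with Nint replicate 1 at 1342.4 and the other 5 at 45.2 or below, and it was not separated from Sora (0.83, SE 1.04, adjusted p = 0.638). Pirf libraries held 0 to 16.6, and Sora replicate 3, at 0, lay in that range. The test called Sora higher than Pirf (6.04, adjusted p = 0.00161). Its difference from TGFb alone (4.22, adjusted p = 0.0231) was lost without Sora replicate 2 or 5 or TGFb-alone replicate 4 or 6, with the replicate block, with DESeq2, in a fit limited to those 12 libraries and against a fold of 1.2 (0.0525 to 0.0741).

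ENSRNOG00000058438 is absent from the coding table. It had 0 to 6.56 normalized counts in untreated slices (median 2.23) and 0.888 to 202.6 with Sora (median 8.41). Sora replicates 4 and 5 held 202.6 and 184.9, and the other 4 held 13 or less. The 6 TGFb-alone libraries held 1 raw count in all, so no fold is given against them. Against untreated slices the log2 fold change was 4.49 (SE 1.30, adjusted p = 0.0112), 3.77 without Sora replicate 4, and 3.88 with the well number as a term, where it was not called (0.0916). The ID was also called against untreated slices with Pirf (4.42, adjusted p = 0.00497) and with Nint (3.69, adjusted p = 0.0345). There too some libraries were high, 3 with Pirf at 105.1 to 157.7 and Nint replicates 3 and 5 at 91.8 and 132.7, and the rest held 7.26 or less. Sora was not separated from Pirf (adjusted p = 0.965) or from Nint (adjusted p = 0.64).

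ENSRNOG00000046920 had 0 to 45.6 normalized counts in all 6 Sora libraries (median 23). In untreated slices 4 libraries held 509.9 to 658.2 and the other 2 held 21.5 and 63.4, and with TGFb alone 3 held 665.2 to 909.2 and 3 held 10.4 to 61.4. High and low libraries thus occurred within groups as well as between them. The log2 fold change against untreated slices was -4.27 (SE 1.38, adjusted p = 0.0223), and it was not called with the well number as a term (-2.73, 0.206), against a fold of 1.2 (0.0553) or without Sora replicate 3 (0.0526). Its call against TGFb alone (adjusted p = 0.0337) was lost in 8 of the settings tried (0.0658 to 0.101). Sora also lay below Pirf (-3.92, adjusted p = 0.0215) and Nint (-4.16, adjusted p = 0.047), whose libraries ranged from 0 to 838.2 and from 0 to 813.8.

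ENSRNOG00000037085 had 43.1 to 140.1 normalized counts in untreated slices (median 73.6), 31.4 to 179.2 with TGFb alone (median 108.1) and 2.74 to 62.4 with Sora (median 5.69). Sora replicate 5 held the 62.4 and overlapped with the untreated range. The log2 fold change was -2.15 against untreated slices (SE 0.57, adjusted p = 0.00606) and -2.48 against TGFb alone (SE 0.57, adjusted p = 0.00369). Without Sora replicate 5 these were -3.11 and -3.44. Pirf libraries stood at 17.1 ± 4.55, below untreated ones (log2 fold change -2.28, adjusted p = 0.0014), and not separated from Sora (0.13, SE 0.60, adjusted p = 0.887). Nint libraries stood at 149.8 ± 37.5, and all 6 lay above all Sora libraries (adjusted p = 0.00125).

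The IDs given next were picked after their values were seen, as those with the largest new change among genes whose Sora libraries overlapped neither with untreated slices nor with TGFb alone. ENSRNOG00000033564 had 124.2 to 192.7 normalized counts in untreated slices (median 157.2), 80.1 to 208.5 with TGFb alone (median 132.7) and 350.5 to 487.6 with Sora (median 432.3). It rose over untreated slices by 1.41 on the log2 scale (SE 0.23, adjusted p = 2.58e-05) and over TGFb alone by 1.60 (SE 0.23, adjusted p = 1.44e-05). Pirf libraries, at 304.7 ± 54.9, also lay above all untreated ones (log2 fold change 0.93, SE 0.22, adjusted p = 0.000866), and Sora and Pirf were not separated (0.48, SE 0.22, adjusted p = 0.076). Nint libraries stood at 168.9 ± 72.9, and Sora exceeded them by 1.33 (SE 0.22, adjusted p = 0.000324).

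ENSRNOG00000018454 was abundant, with 6022 to 9077 normalized counts in untreated slices (median 7055), 5264 to 12037 with TGFb alone (median 6264) and 12438 to 19810 with Sora (median 16089). Its log2 fold change was 1.15 against untreated slices (SE 0.20, adjusted p = 0.000109) and 1.11 against TGFb alone (SE 0.20, adjusted p = 0.000414). Pirf slices also lay above untreated ones, at 14586 ± 1396 (adjusted p = 0.000116 against untreated slices), and Sora and Pirf differed by 0.14 (SE 0.20, adjusted p = 0.594). Nint stood at 7539 ± 2143, and Sora exceeded Nint by 1.10 (SE 0.20, adjusted p = 0.000922).

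Downward, ENSRNOG00000010688 had 92.9 to 174.2 normalized counts in untreated slices (median 134.2), 98.3 to 180.8 with TGFb alone (median 121.7) and 32.5 to 60.6 with Sora (median 41.4). It fell by 1.61 on the log2 scale from untreated slices (SE 0.16, adjusted p = 6.75e-09) and by 1.55 from TGFb alone (SE 0.16, adjusted p = 5.92e-08). With Nint the level was also lower, at 64.1 ± 12 (log2 fold change -1.07 against untreated slices, adjusted p = 3.57e-06). Sora lay lower than Nint (-0.54, SE 0.16, adjusted p = 0.0274). Pirf libraries, at 97.1 ± 8.59, were below untreated ones by -0.47 (adjusted p = 0.0111), and Sora lay below Pirf by -1.14 (SE 0.16, adjusted p = 8.44e-07).

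ENSRNOG00000015850 had 59 to 102.1 normalized counts in untreated slices (median 78.5), 32.3 to 74.4 with TGFb alone (median 43.2) and 11.5 to 27.4 with Sora (median 17.9). Its log2 fold change was -2.19 against untreated slices (SE 0.34, adjusted p = 1.68e-05) and -1.45 against TGFb alone (SE 0.34, adjusted p = 0.00395). TGFb alone lay below untreated slices by -0.73 on the log2 scale without a call (SE 0.32, adjusted p = 0.0896). That difference was called with DESeq2 (0.00399), in a fit limited to those 12 libraries (0.0218) and without TGFb-alone replicate 3 (0.0431), where the ID stays changed and moves further in place of being new. Nint brought it to 24.3 ± 6.01, and Sora and Nint were not separated (-0.47, SE 0.34, adjusted p = 0.376), whereas Sora lay below Pirf, at 44.9 ± 5.8, by -1.35 (SE 0.34, adjusted p = 0.00169).

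**Figure D3:**
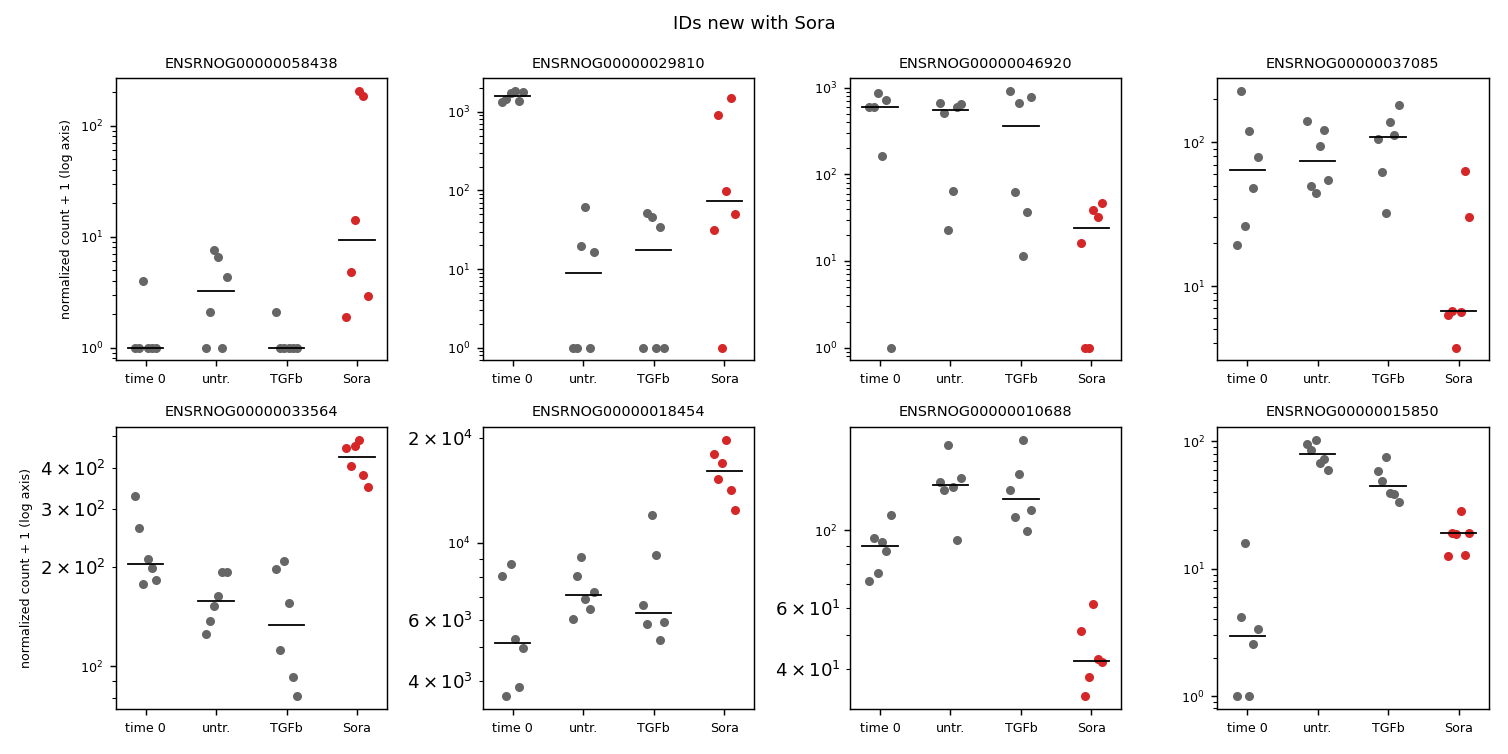
Normalized counts plus 1, on a log axis, in each of 6 libraries per group (points) with the group median (line), for IDs new under Sora. The upper row has the largest changes, where Sora libraries (red) overlap with the other groups, and the lower row has IDs whose 6 Sora libraries lie outside the range of untreated slices and of TGFb alone.

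The other drugs were set beside Sora over the same sets of genes, each against the same untreated libraries. Genes that stayed higher under Sora had medians of 0.50 with Nint and 0.48 with Pirf, and those that stayed lower -0.73 and -0.61. For genes new under Sora the medians were 0.08 with Nint and 0.27 with Pirf for the higher, and -0.11 and -0.35 for the lower. The 816 genes no longer called under Sora had medians of 0.30 and -0.33 with Nint, for those raised and lowered by TGFb, and of 0.03 and -0.12 with Pirf. The sets were chosen on Sora libraries and all medians share the untreated libraries, so they are a description.

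**Figure D4:**
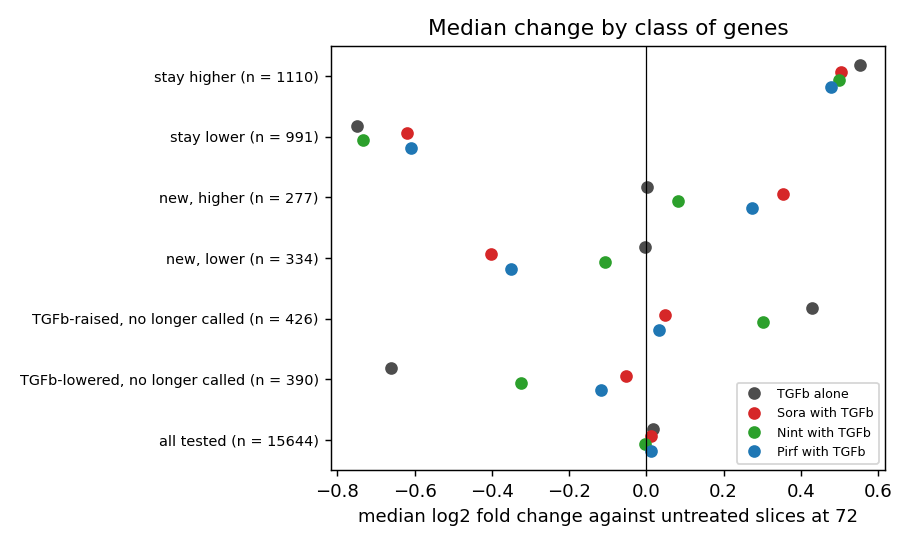
Median log2 fold change against untreated slices at 72 (x axis) for each set of genes (y axis, with its number of genes), for TGFb alone and for TGFb with Sora, Nint or Pirf. In genes new under Sora, chosen as not called with TGFb alone, the red points lie at 0.35 and -0.40 and the points for TGFb alone at 0.00.

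To compare whole profiles without choosing genes, the distance of each library from untreated slices was computed, as the root mean square of its log2 CPM differences from the untreated mean over all 15644 genes. Sora libraries lay at 0.566 to 0.745 (mean 0.634 ± 0.063, SD, n = 6). Untreated libraries lay at 0.443 to 0.487, each from the mean of the other 5, and 0 of them reached the Sora range. Slices with TGFb alone lay at 0.639 to 0.792 (mean 0.714 ± 0.058), with Nint at 0.644 to 0.713 (mean 0.673 ± 0.0306) and with Pirf at 0.725 to 0.797 (mean 0.759 ± 0.0268).

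Sora slices were nearer to untreated ones than Pirf slices by 0.125 (exact permutation p = 0.00649, adjusted p = 0.0195 over 3 comparisons), although Sora replicate 3, at 0.745, overlapped with the Pirf range. The difference of -0.0801 from TGFb alone did not pass (exact permutation p = 0.0519, adjusted p = 0.0779), and neither did that of -0.0386 from Nint (exact permutation p = 0.21). Without Sora replicate 3, the farthest library, both were called, at -0.102 and -0.0608 (exact permutation, adjusted p = 0.0152 for each). The difference from TGFb alone was also called without untreated replicate 5 (-0.0876, adjusted p = 0.0455) or TGFb-alone replicate 6 (-0.0952, adjusted p = 0.0422), both by the exact permutation test. That last library, at 0.639, was the nearest to untreated slices of those with TGFb alone. Over 30 omissions of 1 library each, the exact permutation test gave adjusted p from 0.0152 to 0.146 for TGFb alone and from 0.0152 to 0.405 for Nint. In counts of genes called against untreated slices, Pirf gave 8131 (52%) and Nint 4137 (26.4%). The median over genes of the SD of log2 CPM within a group was 0.197 with Sora, 0.179 in untreated slices and 0.193 with TGFb alone. It was 0.143 with Nint and 0.133 with Pirf. Mean depth was 27986100 with Sora, 24479100 with TGFb alone, 25260900 with Nint and 25482900 with Pirf. The part of spread and depth in the distances and in the counts of calls was not tested.

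**Figure D5:**
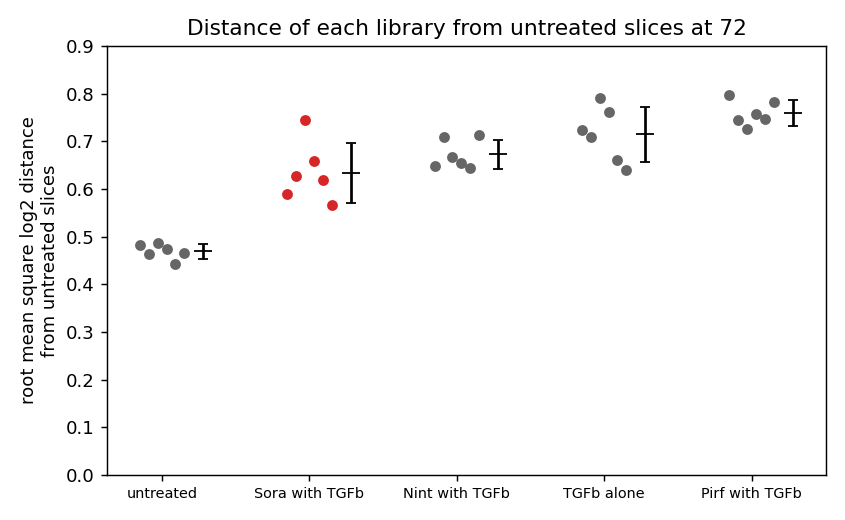
Root mean square log2 distance of each library (point) from untreated slices at 72 (y axis, no further unit) by group (x axis), with the group mean and SD beside the points. The 6 Sora libraries (red) lie above all untreated libraries, and 5 of them lie below all Pirf libraries.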

How the data were processed

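RNA was extracted from rat lung slices and sequenced as stranded total RNA libraries after removal of ribosomal RNA, per the labels' protocols. RSEM, edgeR and the build Rnor_6.0 are named in the submitters' processing notes. The sources used here do not name an aligner, an annotation or a strand setting. The authors deposited expected counts for 32883 gene IDs, unscaled, of which 8.59% of values were not whole. RSEM can share reads among near-identical genes, so such counts are uncertain. The authors also deposited log2 CPM for 14984 genes (the coding table), whose name describes them as expressed and protein coding. These values equalled edgeR's log2 CPM with TMM factors and a prior count of 0.25, within 4.97e-14, and served here to mark coding genes.

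After rounding, these estimated counts were tested with edgeR 4.0.16 under R 4.3.3. After filterByExpr, 15644 genes were tested, 1164 of them outside the coding table. A single quasi-likelihood fit held all 36 libraries, with TMM factors and a mean per group, with Benjamini-Hochberg adjustment over all genes tested. Every adjusted p of a gene comes from it unless another tool, term, fold or set of libraries is named. SE is the absolute log2 fold change over the square root of F. Distances used log2 CPM with a prior count of 2, from the mean of 5 untreated libraries with each left out in turn, and two-sided exact permutation tests, whose smallest p for 6 against 6 is 0.0022. Alternatives were other scaling, filters and sets of libraries, DESeq2 1.42.0, a replicate block, the well number, a fold of 1.2, thinned libraries and leaving out each library.

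None of the tested IDs (0 of 15644) could be paired with a name, so gene lists by name were not run and no promoter sequence could be matched. Named IDs are the 2 largest rises and the 2 largest falls that were called with groups apart and a mean of at least 50 normalized counts in the higher group, and, in the sets that stay changed or are new, the 2 in each direction with the largest smaller change of the 2 contrasts. IDs that are new with groups apart, and IDs no longer called, were added after the data were seen. The comparison and the choices were made with earlier results of these data known.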

Additional observations from a re-analysis of the deposited data

Results flagged for a closer look

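A library far from the other 5 of its group was found in 4 of 66 groups of 6 examined. For normally distributed values chance gives about 1 in 20. Most groups held unlogged counts of chosen IDs, some near 0, so this rate need not hold for them. ENSRNOG00000013605 had 16.1 normalized counts in Sora replicate 6, and the next highest Sora library had 6.32. ENSRNOG00000011824 had 2679.5 in TGFb-alone replicate 3, beside 1101 in the next. ENSRNOG00000058438 had 1.08 in TGFb-alone replicate 1, where the other 5 were at 0, and this is a single read. ENSRNOG00000029810 had 59.7 in untreated replicate 4, beside 18.7 in the next.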

How the results depend on the processing

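Against a fold of 1.2, called genes numbered 1143 for Sora with TGFb against untreated slices (588 higher, 555 lower), 1779 for TGFb alone and 410 for Sora against TGFb alone, with 692 that stayed changed, 62 new and 197 no longer called. In fits of the 12 libraries of each comparison, net calls numbered 3194, of which 2879 were shared with the main fit. Sora against TGFb alone gave 1423 calls in such fits, and 268 genes were new. Under the other scalings, filters, DESeq2, thinned libraries (chosen after seeing the data) and the well number, each of these counts stayed within 1.5 times of the reported one, and net calls ranged from 3344 with the well number to 4283 with DESeq2. With total counts alone, 1589 of the 2101 genes that stayed changed remained so. The fit with the well number kept 2847 of the 3913 net calls of the main fit. It kept 1611 of the 2101 genes that stayed changed and 401 of the 611 new genes, so similar totals hide changes in which genes are called.

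With libraries left out in turn, net calls ranged from 2916 to 4640, calls of Sora against TGFb alone from 1640 to 3232, genes that stayed changed from 1665 to 2138, new genes from 315 to 1177 and genes no longer called from 570 to 972. The distance difference ranged from -0.102 to -0.0647 for TGFb alone, from -0.0608 to -0.0239 for Nint and from -0.147 to -0.104 for Pirf. The cause was not tested. The labels do not say whether the replicate numbers pair samples. Of 6 same-numbered pairs of Sora and untreated libraries, 2 had deviations from group means correlated over 0.1, and 1 of 6 Sora libraries correlated best with its own number. Mean correlations of same-numbered and other pairs were 0.0042 and -0.0009 for Sora and untreated libraries. They were 0.0065 and -0.0015 for Sora and TGFb alone, and 0.081 and -0.016 for TGFb alone and untreated libraries. With 6 pairs each, these values cannot decide whether the numbers pair samples. The replicate block gave 4124 net calls, 2175 genes that stayed changed and 720 new.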
